A study of Mus musculus with 10 samples.

Results

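Transcripts of 10 circadian clock genes were followed in the cerebral cortex of mice with a conditional knockout of Brap and of their controls. The genes were chosen by symbol: Arntl, the period genes Per1, Per2 and Per3, the nuclear receptors Nr1d1 and Nr1d2, the repressor Bhlhe40, and the transcription factors Dbp, Tef and Hlf. All 10 were present among the 14276 genes of the count table, and all 10 passed the filter on low counts. Brap encodes a ubiquitin ligase known to restrain signalling from Ras to the MAP kinases. The question put to these data was whether the clock transcripts differed between knockout and control cortex, and whether genes that peak at opposite times of day moved together or apart.

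RNA of 10 C57BL/6 cortex libraries from mice aged 3 months was sequenced after removal of ribosomal RNA. The control group held 3 libraries of Brap flox/wt Cre- mice (control 08, 22 and 23) and 2 of flox/flox Cre- mice (control 09 and 24). The BrapcKO group held 3 libraries of flox/ko Cre+ mice (BrapcKO 04, 07 and 21) and 2 of flox/flox Cre+ mice (BrapcKO 05 and 06). Here wt is the normal allele, flox one that Cre recombinase can delete, and ko one already deleted. Cre was carried by all BrapcKO and by no control mice, so an effect of Cre itself and of the knockout cannot be told apart. Which promoter drives Cre, which exons are removed and at what time of day tissue was taken is not stated in these sources. Nor is it stated that libraries come from separate animals, so p-values measure the spread between libraries, which may in part be technical. Sample titles also carry a code of unstated meaning. Code B1 marked 6 libraries, 2 control (08 and 09) and 4 BrapcKO (04, 05, 06 and 07). Code B2 marked 4 libraries, 3 control (22, 23 and 24) and 1 BrapcKO (21).

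The circadian clock is a feedback loop of transcription that runs in most cells, cortical neurons and glia included. BMAL1, the product of Arntl, pairs with CLOCK or NPAS2 and binds E-box elements, switching on the Per and Cry repressors, the REV-ERB receptors (Nr1d1 and Nr1d2) and Dbp. PER and CRY proteins then block BMAL1, while REV-ERB proteins repress Arntl itself through ROR response elements, so that Arntl transcript peaks about when Nr1d1 and Dbp transcripts are lowest. Dbp, Tef and Hlf are related activators of the PAR bZIP family that bind D-box elements, as in Per genes, and NFIL3 represses through the same elements. Bhlhe40 encodes DEC1, which competes at E-boxes. Per1 and Bhlhe40 are also known to respond to stimulation and not to the clock alone. In bulk tissue, fewer cells of a type and less RNA per cell cannot be told apart, and with the time of collection unknown neither can a change of level and a change of phase.

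Promoter sequence shows which of these elements lies next to the start of each gene. RefSeq windows of 250 bases before the start (GRCm38.p6) were matched for 8 of the 10 genes, in 11 windows; Per2 and Bhlhe40 were not matched. Both strands were searched for the E-box CACGTG, the D-box TTATGTAA and its second form TTACGTAA, the cAMP response element TGACGTCA and the ROR response element. None of these overlapped another in the windows printed. The stretches around each match follow 5′ to 3′ on the strand of the gene, with the element in capitals.
Per1, chr11:69098753-69098818, plus strand: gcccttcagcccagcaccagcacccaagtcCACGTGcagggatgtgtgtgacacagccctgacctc
Tef, chr15:81802516-81802581, plus strand: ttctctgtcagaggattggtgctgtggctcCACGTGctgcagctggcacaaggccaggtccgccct
Tef, chr15:81811246-81811311, plus strand: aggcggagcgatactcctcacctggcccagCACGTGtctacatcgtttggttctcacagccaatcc
Per3, chr4:151044786-151044900, minus strand: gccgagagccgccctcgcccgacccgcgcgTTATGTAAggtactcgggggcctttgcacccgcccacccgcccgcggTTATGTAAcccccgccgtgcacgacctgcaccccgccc
Hlf, chr11:90390918-90390956, minus strand: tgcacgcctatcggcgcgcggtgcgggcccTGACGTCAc

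The E-box stood in 1 window of Per1 and in both windows of Tef, against 6.02% of 32851 windows of all genes. Per3 alone held the D-box, 2 times, an element found in 0.819% of all windows. The cAMP response element stood in the window of Hlf, against 1.55% of all windows. The second form of the D-box (0.113% of all windows) and the ROR response element (0.332%) were in none of the 11 windows. The windows of Arntl, Nr1d1, Nr1d2 and Dbp held none of the elements searched. A match is a string of letters and not a measured binding site, and elements farther from the start were not searched.

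Libraries held 17188901 to 28991874 counts, the 6 B1 libraries 17188901 to 20955211 and the 4 B2 libraries 26356508 to 28991874. The lowest count of any of the 10 genes in a library was 319. Brap itself was not lower in the BrapcKO libraries, at 76.7 to 98.6 CPM (read counts scaled to library size, here with TMM factors) in control and 89.0 to 110.5 CPM in BrapcKO (log2 difference 0.23, edgeR adjusted p = 0.182). Brap was higher in flox/ko Cre+ libraries, set against flox/wt Cre- (0.39, adjusted p = 0.0402), and stood at -0.04 between the flox/flox libraries (0.921). Counts over the whole gene cannot show whether an exon was lost. Y-linked reads were high in control 23 and in BrapcKO 05, 06, 07 and 21 and near 0 elsewhere, so males and females were uneven between the groups. Among flox/flox libraries they were high in both with Cre and in neither without it. Cre and sex cannot be told apart in that pair. The 8 excitatory neuron markers together stood at 2975 to 3642 CPM in control and 2705 to 3240 CPM in BrapcKO libraries, and none of the cell type markers was at 0 in any library.

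Per kilobase of exon, Tef was the most abundant of the 10 transcripts in control cortex, at 46.6 ± 3.78 CPM per kb (mean ± SD, n = 5). Nr1d2 followed at 30.4 ± 5.05, Hlf at 27.9 ± 5.24 and Bhlhe40 at 26.4 ± 5.18 CPM per kb. Nr1d1 stood at 20.3 ± 3.61, Dbp at 19.1 ± 12.9 and Per1 at 14.1 ± 3.00 CPM per kb. The lowest levels were those of Per2 at 8.69 ± 1.91, Arntl at 5.68 ± 1.32 and Per3 at 5.21 ± 1.09 CPM per kb. In this order only Tef and Nr1d2, and Per1 and Per2, were neighbours whose means differed by more than their SDs added together. Dbp had the widest spread between control libraries.

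**Figure D1:**
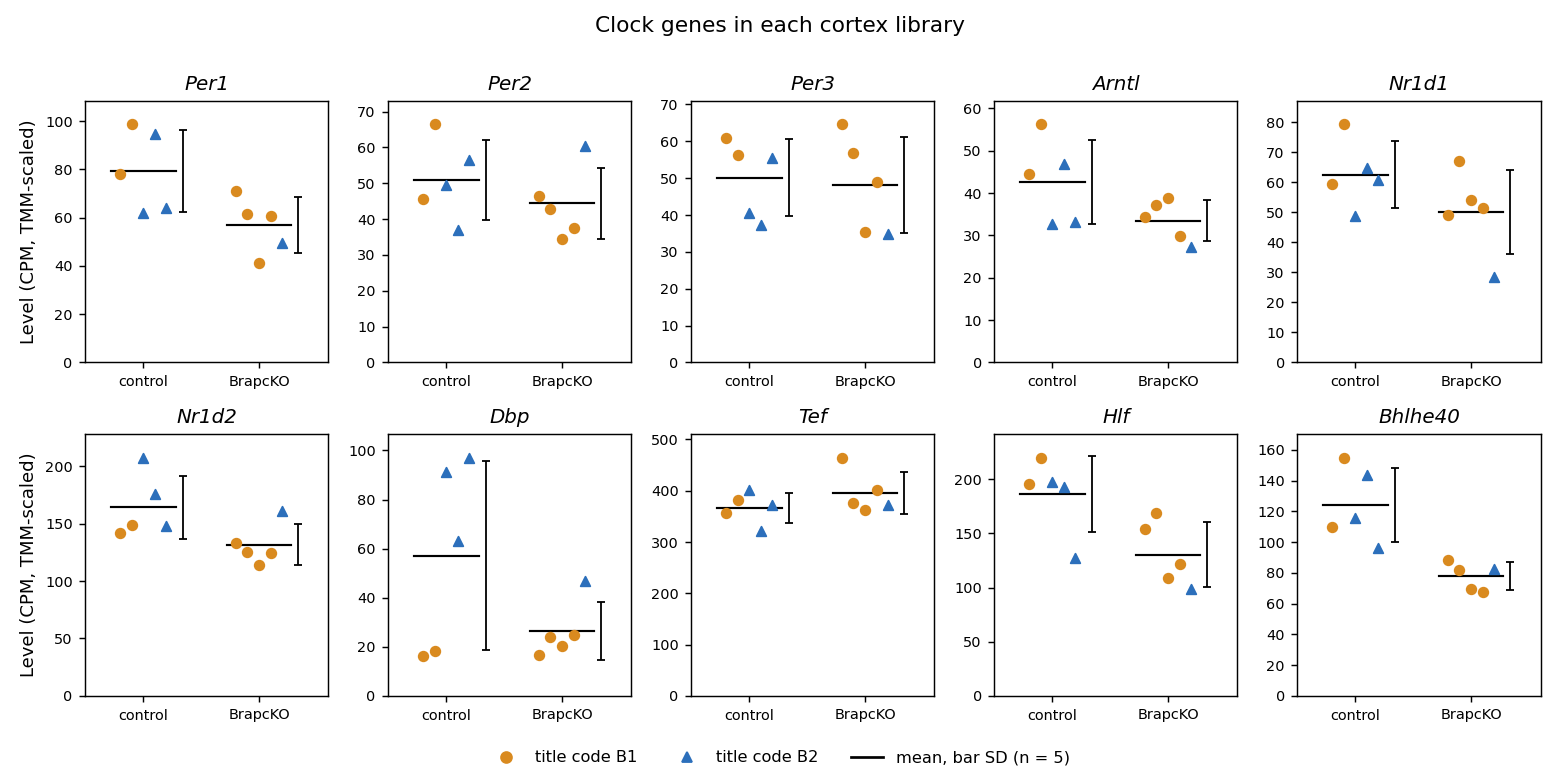
Level of each of the 10 clock genes in each library, in CPM scaled by TMM, for 5 control and 5 BrapcKO libraries, with circles for title code B1, triangles for B2, a line at the mean and a bar of 1 SD. Bhlhe40 was lower in every BrapcKO library than in every control library, and Dbp separated by title code, at 16.2 to 24.9 CPM in B1 and 46.8 to 97.0 CPM in B2. The share of all genes that separated in either way was not counted.

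Of the 10 genes, 3 fell in BrapcKO cortex and none rose when the title code was a term of the model (edgeR quasi-likelihood test, adjusted p under 0.05 over all genes). They were Bhlhe40, Hlf and Arntl, which lay 38.0%, 37.0% and 29.5% below control. In the same fit 706 of all 14276 genes fell (4.95%) and 446 rose (3.12%). The 10 genes and the lists below were chosen with earlier results of these data known. Counts set against all genes are therefore a description and not a test. The log2 difference was below 0 for 9 of the 10, with a median of -0.37, against a median of 0.01 over all genes. With the group as the only term, 1 of the 10 fell, Bhlhe40, where 2.49% of all genes fell and 1.83% rose. With no term for the title code, Arntl (adjusted p = 0.27) and Hlf (adjusted p = 0.128) missed the threshold in edgeR.

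Arntl (chr7:113207465-113314126, plus strand, GRCm38), which encodes the core activator BMAL1, stood at 44.6, 56.2, 32.8, 46.8 and 33.1 CPM in control 08, 09, 22, 23 and 24. In BrapcKO 04, 05, 06, 07 and 21 it stood at 34.4, 37.1, 38.8, 29.9 and 27.2 CPM. The groups overlapped as a whole, but within each title code every BrapcKO library lay below every control library. How often this occurs over all genes was not counted. The group difference of Arntl was -0.50 on the log2 scale (SE 0.13, 95% interval -0.78 to -0.23, edgeR adjusted p = 0.0308). The call was lost without control 09 (log2 difference -0.41, adjusted p = 0.173), BrapcKO 04 (-0.49, 0.0543), BrapcKO 07 (-0.46, 0.0592) or BrapcKO 21 (-0.53, 0.11), each in edgeR. It held with a term for the Y-linked reads added to the title code (-0.69, adjusted p = 0.0392).

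The partners of Arntl and the genes of similar or delayed phase did not pass the test. Clock, which encodes the usual partner of BMAL1, differed by -0.01 on the log2 scale (95% interval -0.21 to 0.18, edgeR adjusted p = 0.957), a sign that changed with the group as the only term (0.10) and with plain library totals (0.015). Npas2, which encodes the alternative partner, differed by -0.23 (interval -0.45 to -0.02, adjusted p = 0.181). Nfil3, the D-box repressor that peaks near Arntl, differed by -0.30 (interval -0.76 to 0.16, adjusted p = 0.459). Cry1, a repressor with a delayed peak, differed by 0.10 (interval -0.21 to 0.41, adjusted p = 0.745).

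Bhlhe40 (chr6:108660629-108666925, plus strand), which encodes the E-box repressor DEC1, was the only one of the 10 whose groups did not overlap. It stood at 109.9, 154.8, 115.6, 143.8 and 96.4 CPM in control 08, 09, 22, 23 and 24, and at 88.5, 81.9, 69.3, 67.7 and 82.5 CPM in BrapcKO 04, 05, 06, 07 and 21. Every BrapcKO library was below every control library. The share of all genes that separated in this way was not counted. Mean levels were 124 ± 24.4 CPM in control and 78.0 ± 9.03 CPM in BrapcKO (SD, n = 5 per group). The log2 difference was -0.69 (SE 0.14, 95% interval -0.99 to -0.39, edgeR adjusted p = 0.00988). With the group as the only term the difference was -0.67 (adjusted p = 0.019). The call was lost without control 09, the highest library (-0.52, edgeR adjusted p = 0.0727), and with a term for Y-linked reads beside the title code (-0.74, adjusted p = 0.0641).

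The period genes encode the core repressors of BMAL1, and none of the 3 passed the test. Per1 stood at 78.1, 98.7, 61.9, 94.5 and 64.1 CPM in control 08, 09, 22, 23 and 24, and at 71.1, 61.4, 41.2, 60.6 and 49.6 CPM in BrapcKO 04, 05, 06, 07 and 21. As for Arntl, BrapcKO libraries were below control libraries within each title code. In B2 this rests on BrapcKO 21 alone, and how often it occurs over all genes was not counted. The log2 difference of Per1 was -0.58 (SE 0.17, 95% interval -0.95 to -0.22, edgeR adjusted p = 0.0513). DESeq2 called it (adjusted p = 0.011), and edgeR called it without BrapcKO 04 (-0.65, adjusted p = 0.0364).

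Per2 stood at 45.6, 66.4, 49.4, 36.8 and 56.3 CPM in control 08, 09, 22, 23 and 24, and at 46.5, 42.9, 34.5, 37.6 and 60.3 CPM in BrapcKO 04, 05, 06, 07 and 21. The groups overlapped throughout, and the log2 difference was -0.17 (95% interval -0.56 to 0.23, edgeR adjusted p = 0.65). Without control 09 the difference of Per2 turned to 0.08. Per3 ranged from 37.3 to 60.8 CPM in control and from 35.0 to 64.6 CPM in BrapcKO libraries, with a log2 difference of -0.24 (95% interval -0.61 to 0.12, edgeR adjusted p = 0.441). The interval of Per3 includes the estimate for Arntl, so these libraries do not tell whether Per3 fell by as much.

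Nr1d1, which encodes REV-ERB alpha, the main repressor of Arntl, stood at 59.4, 79.3, 48.6, 64.7 and 60.9 CPM in control 08, 09, 22, 23 and 24. In BrapcKO 04, 05, 06, 07 and 21 it stood at 49.1, 67.1, 54.1, 51.5 and 28.6 CPM. BrapcKO 21 was the lowest of all 10 libraries, and the other BrapcKO libraries overlapped with control. The log2 difference was -0.57 (SE 0.16, 95% interval -0.92 to -0.21, edgeR adjusted p = 0.0514). DESeq2 (adjusted p = 0.00841) and limma-voom (adjusted p = 0.0449) called Nr1d1, as did edgeR without control 08 (-0.76, 0.0242) or BrapcKO 05 (-0.64, 0.0194). Without BrapcKO 21 the difference of Nr1d1 was -0.33 (edgeR adjusted p = 0.328).

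Nr1d2, which encodes REV-ERB beta, stood at 142, 148.5, 207.3, 175.7 and 148.2 CPM in control 08, 09, 22, 23 and 24. In BrapcKO 04, 05, 06, 07 and 21 it stood at 133.5, 125.7, 113.7, 124.1 and 161 CPM. Only BrapcKO 21 reached into the control range. The log2 difference of Nr1d2 was -0.19 (SE 0.10, 95% interval -0.40 to 0.01, edgeR adjusted p = 0.261).

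Of the PAR bZIP activators, the output arm of the clock, only Hlf (chr11:90336536-90390895, minus strand) passed the test. It stood at 195.9, 219.8, 197.8, 192.5 and 127 CPM in control 08, 09, 22, 23 and 24, and at 154.2, 168.8, 108.5, 121.6 and 98.7 CPM in BrapcKO 04, 05, 06, 07 and 21. Control 24 was low and lay inside the BrapcKO range, but within each title code no libraries overlapped. The log2 difference of Hlf was -0.67 (SE 0.16, 95% interval -1.01 to -0.32, edgeR adjusted p = 0.0234). Its call was lost without control 08 (-0.73, 0.0544), control 09 (-0.65, 0.0977) or BrapcKO 21 (-0.59, 0.149), and with a term for Y-linked reads (-0.68, 0.137), each in edgeR.

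Tef ranged from 321.6 to 400.6 CPM in control and from 361.6 to 464.2 CPM in BrapcKO libraries. Its log2 difference was 0.09 (95% interval -0.12 to 0.29, edgeR adjusted p = 0.648), an interval that does not reach the estimate for Hlf. The difference between Hlf and Tef was not tested.

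Dbp (chr7:45705088-45710203, plus strand), an E-box target with one of the steepest daily rhythms among clock outputs, separated by title code. It stood at 16.2 and 18.4 CPM in control 08 and 09, and at 91.1, 63.2 and 97.0 CPM in control 22, 23 and 24. In BrapcKO 04, 05, 06 and 07 it stood at 16.9, 24.1, 20.2 and 24.9 CPM, and in BrapcKO 21 at 46.8 CPM. All 4 B2 libraries lay above all 6 B1 libraries. The share of all genes that separated by title code was not counted. The group difference of Dbp, with a term for title code, was -0.11 on the log2 scale (SE 0.24, 95% interval -0.63 to 0.41, edgeR adjusted p = 0.839). With the group as the only term it was -1.10 (adjusted p = 0.315), and the SD of its residuals was 0.97 on the log2 scale, against 0.38 after the title code was added.

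Between the title codes, with the group as a term, Dbp was 3.56 times as high in B2 (log2 difference 1.83, SE 0.24, edgeR adjusted p = 0.000156). In size 415 of the 14276 genes differed between the codes by at least as much. Between the control libraries of the 2 codes the log2 difference of Dbp was 2.28 (edgeR adjusted p = 1.57e-05, with the spread estimated from all 10 libraries). Among BrapcKO libraries it was 1.12, a value with only BrapcKO 21 in B2 and so with no spread of its own. Of the 10 genes, 2 were higher in B2 (Dbp and Nr1d2) and 2 lower (Arntl and Nr1d1), where 13.4% of all genes were higher and 11.8% lower. Nr1d2 was higher by 0.32 (edgeR adjusted p = 0.029), Arntl fell by 0.40 (adjusted p = 0.0399) and Nr1d1 fell by 0.52 (adjusted p = 0.0367).

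Between the title codes, genes of opposite phase that passed the test moved apart, with 1 exception. Of 5 genes of the positive arm or of delayed phase (Arntl, Clock, Npas2, Nfil3 and Cry1) 3 were lower in B2 and none higher. Of 12 genes driven through E-boxes or D-boxes 4 were higher and 1 lower. Over all genes 11.8% were lower and 13.4% higher. Counting all estimates, passed or not, 4 of the 5 were below 0 (median -0.33). The 12 split evenly, with 6 below 0 and 6 above (median -0.02), so that arm as a whole did not move one way. Clock (-0.33, edgeR adjusted p = 0.0215, every B2 library below every B1 library) and Npas2 (-0.44, adjusted p = 0.00646) were lower in B2 together with Arntl, while Dbp and Nr1d2 were higher. How many of all genes separated by title code as Clock did was not counted. Ciart, which encodes the E-box driven repressor CHRONO (0.69, adjusted p = 0.0115), and Bhlhe41, which encodes DEC2 (0.57, adjusted p = 0.00564), were also higher in B2. The exception was Nr1d1, which fell together with Arntl, the gene it represses. The Nr1d1 difference rested on BrapcKO 21: without it the value was -0.25 (adjusted p = 0.35), and in control libraries alone -0.26 (adjusted p = 0.334). The calls between codes often rested on single libraries. That of Arntl was lost when control 09, 22 or 24 was left out, and likewise for BrapcKO 04, 05, 06 or 21 (edgeR adjusted p from 0.0565 to 0.189). That of Nr1d1 was lost without control 09 or 22 or BrapcKO 04, 06 or 21 (0.0514 to 0.35), and that of Nr1d2 without control 08, 09 or 22 or BrapcKO 21 (0.0609 to 0.156). Clock lost its call without control 08, 09 or 22 (0.0606 to 0.0982), and Ciart without control 08 or 09 (0.0601 and 0.0709). Dbp, Npas2 and Bhlhe41 kept theirs whichever library was left out. Per3, of the E-box and D-box arm, had an estimate of -0.46 that did not pass (adjusted p = 0.0719). Cry1, of delayed phase, had an estimate of 0.37, opposite in sign to Arntl, that did not pass (0.0854), but passed with a term for Y-linked reads (0.45, 0.0349) and without BrapcKO 04 (0.43, 0.0445). The B2 libraries also held more counts than the B1 libraries, and the part of depth in these differences was not tested.

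**Figure D2:**
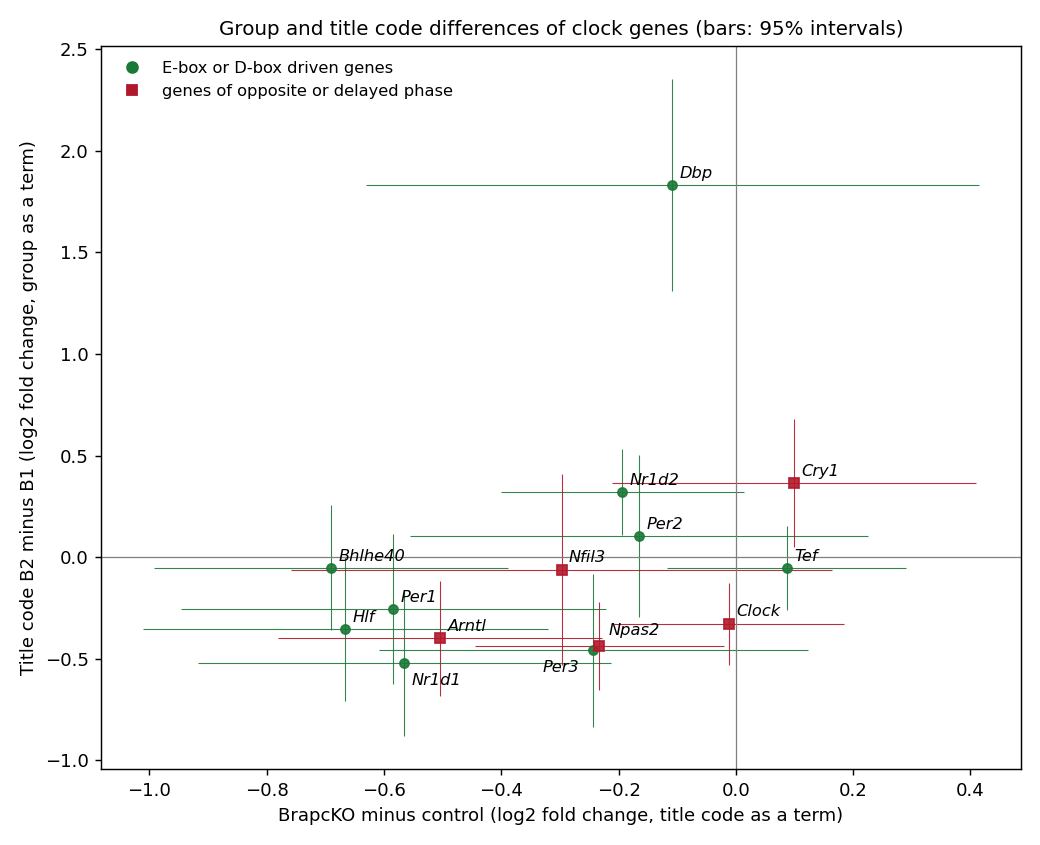
Log2 difference between BrapcKO and control (horizontal axis) against that between title codes B2 and B1 (vertical axis) for the 10 clock genes and Clock, Npas2, Nfil3 and Cry1, with 95% intervals of the edgeR fit. Circles are genes driven through E-boxes or D-boxes and squares are Arntl and the genes of similar or delayed phase; Dbp stands alone at 1.83 on the vertical axis and near 0 on the horizontal axis, while Bhlhe40, Hlf, Per1, Nr1d1 and Arntl lie between -0.69 and -0.50 on the horizontal axis.

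Between the groups, Arntl fell together with Bhlhe40 and Hlf, genes of the other arm. Of the 5 genes of the positive arm or of delayed phase 1 fell, Arntl itself, and none rose. Of the 12 genes of the E-box and D-box arm 2 fell and none rose. Over all genes 4.95% fell and 3.12% rose. With so few calls, these counts do not show that either arm moved as a whole. The estimates of Per1 and Nr1d1, which did not pass the test, were also below 0, at -0.58 and -0.57. No gene of the 10 rose as Arntl fell. The interval of Dbp (-0.63 to 0.41) holds the estimate for Arntl as well as a rise.

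Within groups, Arntl was set against each of the other 9 genes over the 10 libraries, as deviations of log2 CPM from the group means, with 100000 permutations. With Nr1d1 the correlation was positive (Pearson r = 0.725, permutation p = 0.0137, adjusted over 9 relations p = 0.0615; Spearman rho = 0.745, permutation p = 0.0173, adjusted p = 0.14). It stayed positive without control 22 and 24, the libraries farthest from the median of Arntl (r = 0.776), and within the 6 B1 libraries (r = 0.689). With the title code means also removed it was 0.437. Arntl and Nr1d1 were both lower in B2, so their r over the 10 libraries includes that difference. The other relations apart from Dbp ran from -0.553 with Nr1d2 to 0.577 with Hlf, and their adjusted permutation p was at least 0.164. With title code means also removed, Bhlhe40 had the r farthest from 0 (0.719, and 0.589 within B1). Tef then stood at -0.545, so Nr1d1 was not the closest to Arntl in that setting. No relation had an adjusted permutation p under 0.05 there. Dbp formed separate clusters by title code, so no pooled relation is given for it. With title code means also removed, its r with Arntl was -0.429, opposite in sign to that of Nr1d1. In the 6 B1 libraries the r of Dbp was -0.06, and B2 held too few libraries. Of the 8 relations without Dbp, 1 had an unadjusted permutation p under 0.05 (Nr1d1), and 0 had an adjusted p under 0.05. Without BrapcKO 06 the relation with Per1 passed (r = 0.911, adjusted permutation p = 0.0112). Over all 10 libraries its r was 0.538 (adjusted permutation p = 0.164). That r was 0.26 without control 22 and 24, 0.379 with title code means also removed, and -0.139 within the 6 B1 libraries.

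**Figure D3:**
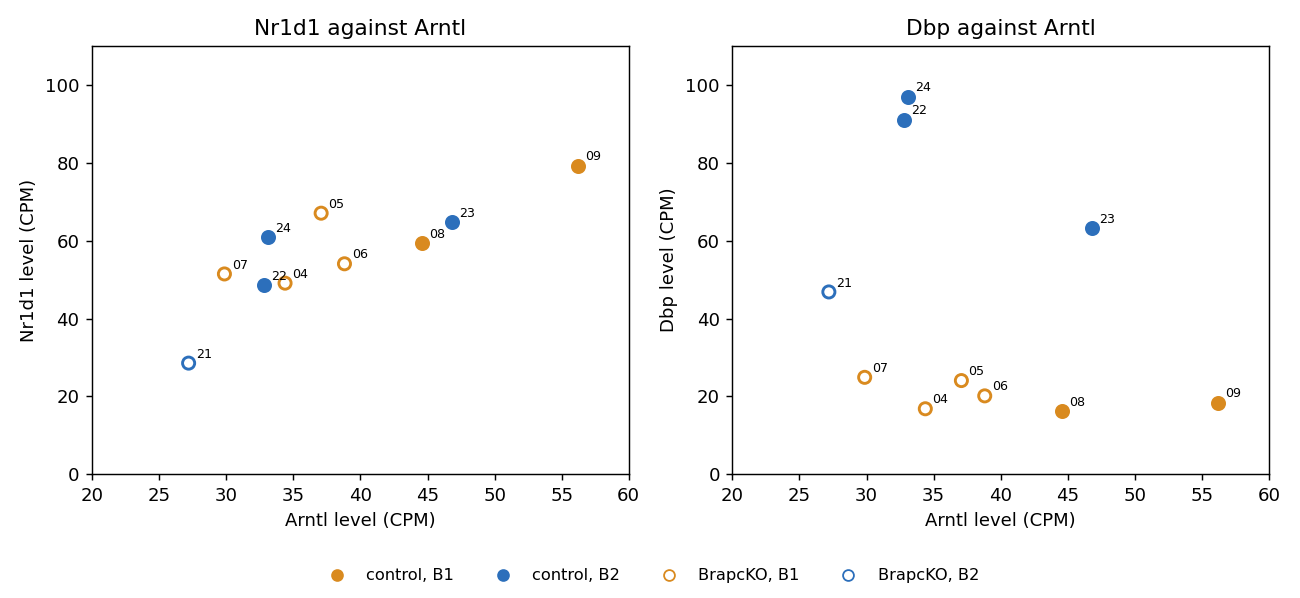
Level of Nr1d1 (left) and Dbp (right) against the level of Arntl in each of the 10 libraries, in CPM scaled by TMM; filled points are control, open points BrapcKO, and colours give the title code. Nr1d1 was highest in control 09 and lowest in BrapcKO 21, as was Arntl, and the B2 libraries held more Dbp than the B1 libraries at like levels of Arntl.

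Group differences were also estimated within each title code, in a single model of all 10 libraries that shares their spread. In B1 the log2 difference was -0.78 for Bhlhe40 (edgeR adjusted p = 0.0375), -0.59 for Hlf (0.153), -0.59 for Per1 (0.189), -0.52 for Arntl (0.116) and -0.32 for Nr1d1 (0.343). In B2, where BrapcKO 21 is the only knockout library and is assumed to vary like the others, it was -0.52 for Bhlhe40 (0.298), -0.81 for Hlf (0.174), -0.57 for Per1 (0.368), -0.47 for Arntl (0.317) and -1.02 for Nr1d1 (0.0501). All of these shared their sign with the pooled fit. Dbp was 0.31 in B1 (0.472) and -0.84 in B2 (0.119).

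The genotypes of the groups were also compared 1 by 1. In flox/ko Cre+ mice, set against flox/wt Cre- mice, Hlf fell by 0.81 on the log2 scale (edgeR adjusted p = 0.0424), and Arntl (-0.56, 0.0769) and Bhlhe40 (-0.66, 0.0772) did not pass. In flox/flox mice, 2 libraries with and 2 without Cre, none of the 10 passed, with Bhlhe40 at -0.76 (0.158), Hlf at -0.48 (0.413) and Arntl at -0.38 (0.451). Y-linked reads were high in both flox/flox Cre+ libraries (BrapcKO 05 and 06) and near 0 in both flox/flox Cre- libraries (control 09 and 24). Cre and sex therefore cannot be told apart in this pair. No difference between these pairs of genotypes reached an adjusted p under 0.05 in any of the 14276 genes, and 6.12% had an unadjusted p under 0.05.

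**Figure D4:**
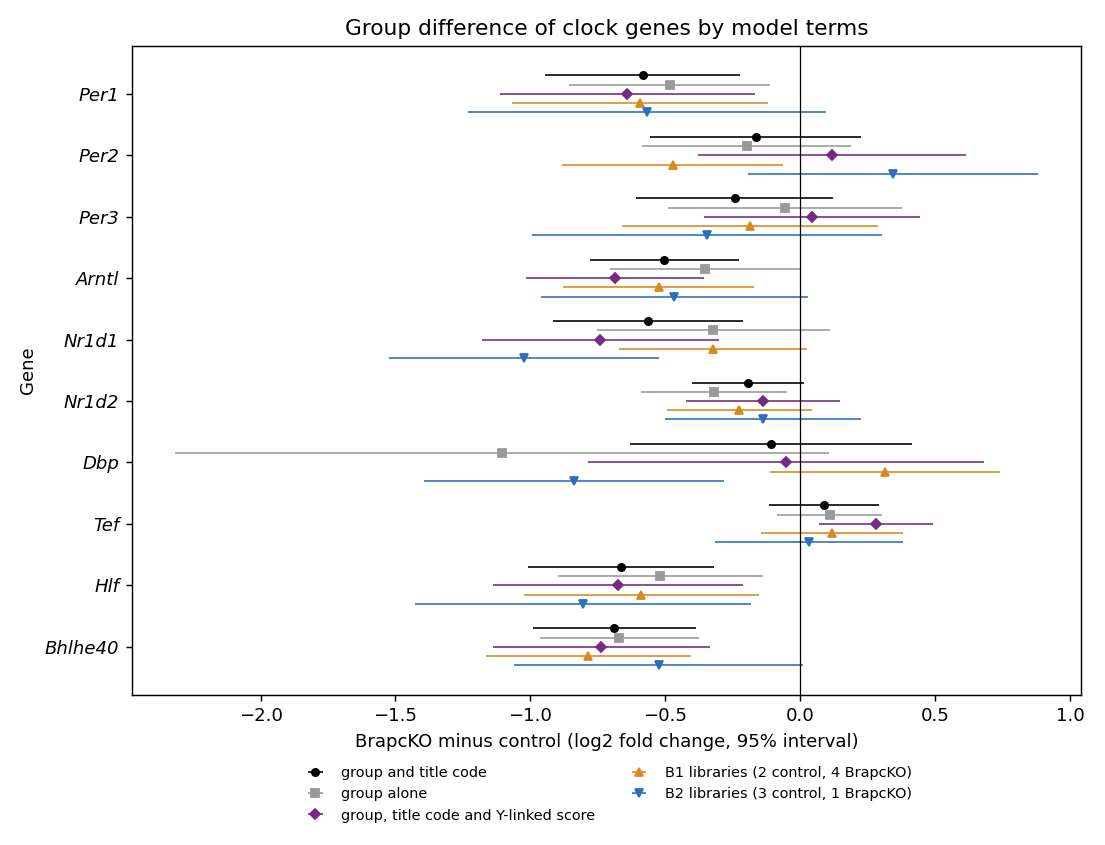
Log2 difference between BrapcKO and control for each of the 10 clock genes, with 95% intervals, from edgeR fits with 5 sets of terms or libraries. The values for B1 and B2 come from a single model of all 10 libraries. The points of Arntl, Hlf, Per1, Nr1d1, Nr1d2 and Bhlhe40 are left of 0 in all 5 and those of Tef right of 0, while those of Per2, Per3 and Dbp lie on both sides.

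Of 24 other clock genes, 4 fell in BrapcKO cortex and none rose, against 4.95% and 3.12% of all genes, and their median log2 difference was -0.01. Rorb, which encodes a retinoid-related receptor and is also known as a layer 4 marker of cortex, differed most (-0.83, edgeR adjusted p = 0.00666). Arntl2, a paralog of Arntl, differed by -0.59 (adjusted p = 0.0352) and Rora, a related receptor that activates Arntl, by -0.55 (0.0113). Csnk1e, a kinase that marks PER proteins for breakdown, differed by -0.34 (0.0369). With the group as the only term none of the 4 passed. Csnk1e was lower in every BrapcKO library (63.9 to 83.2 CPM) than in every control library (90.5 to 97.2 CPM). How many of all genes separated so was not counted. Rorb lost its call without BrapcKO 21 (-0.81, adjusted p = 0.0536), and Rora without control 09 (-0.48, 0.0772) or BrapcKO 21 (-0.57, 0.0615). Csnk1e lost it when control 08, 09, 22 or 23 was left out, or BrapcKO 07 or 21 (adjusted p up to 0.192), and Arntl2 without control 08, 09 or 22 or BrapcKO 04, 06, 07 or 21 (up to 0.127).

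Of these 24 genes, 5 were lower in B2 than in B1 (Clock, Npas2, Rora, Rorb and Arntl2) and 4 higher (Ciart, Bhlhe41, Csnk2a1 and Nono), against 11.8% and 13.4% of all genes. Rora fell by 0.40 (edgeR adjusted p = 0.025), Rorb by 0.81 (0.00244) and Arntl2 by 0.52 (0.0298). Csnk2a1, a subunit of casein kinase, was higher by 0.30 (adjusted p = 0.0227). Calls between codes were lost for Rora without control 09 or BrapcKO 21 (0.101 and 0.12), for Csnk2a1 without control 08, 09 or 22 or BrapcKO 21 (up to 0.18), and for Arntl2 without control 08, 09, 22 or 23 or BrapcKO 21 (up to 0.103).

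Other gene groups moved with the same libraries, and their part in the clock gene results was not tested. Among 16 genes induced by neuronal activity, 15 fell and none rose, where 4.95% of all genes fell and 3.12% rose. Their summed level was 1166 to 2011 CPM in control against 416.6 to 678.6 CPM in BrapcKO libraries. Fos, an immediate early gene, stood at 50.3 to 103.6 CPM in control and fell to between 10.9 and 20.8 CPM in BrapcKO libraries (log2 difference -2.40, edgeR adjusted p = 0.000523). Among 16 glucocorticoid targets, none fell and 1 rose, against the same shares of all genes. Of the 16 estimates 14 were above 0 and 2 below, with a median of 0.43. With the group as the only term none of the 16 passed. Their summed levels were 567.9 to 653.2 CPM in control and 514 to 845.5 CPM in BrapcKO. Fkbp5, a glucocorticoid-induced chaperone, stood at 36.2 to 51.6 CPM in control and 42.1 to 83.8 CPM in BrapcKO (log2 difference 0.61, edgeR adjusted p = 0.0751). It rose in flox/ko Cre+ libraries, set against flox/wt Cre- (1.00, adjusted p = 0.00109), but stood at -0.15 between the flox/flox libraries (0.693), where Cre and sex cannot be told apart. DESeq2 called Fkbp5 (adjusted p = 0.0221), as did edgeR without BrapcKO 05 (0.70, 0.0312) or BrapcKO 06 (0.70, 0.0332), while without BrapcKO 21 it was 0.38 (0.475).

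Cell type markers also differed between the groups, in a fit where 4.95% of all genes fell and 3.12% rose. Of 8 inhibitory neuron markers, 5 rose (summed 873.8 to 983.3 CPM in control, 1105 to 1868 CPM in BrapcKO), and of 8 striatal markers 5 rose (353.7 to 848 against 628.7 to 1386 CPM). Of 8 excitatory markers, 2 fell. Of 8 astrocyte markers 1 rose (5254 to 7027 against 4858 to 8920 CPM), and of 8 microglia markers 1 rose (334.5 to 362.3 against 445.4 to 1244 CPM). No oligodendrocyte marker passed the test (3415 to 4753 against 2543 to 3492 CPM), nor did an endothelial one (131.8 to 254.9 against 189.6 to 402.7 CPM). With the group as the only term 3 inhibitory, 2 striatal, 1 astrocyte and 2 microglia markers rose, and 1 excitatory marker fell. In that fit 1.83% of all genes rose and 2.49% fell. Between title codes, 3 of 8 endothelial markers were lower in B2, against 11.8% of all genes. The 8 together stood at 131.8 to 197.5 CPM in B2 and 229.3 to 402.7 CPM in B1.

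Genes whose levels tracked Dbp and Arntl between libraries were sought among 11711 genes, by Pearson r of log2 CPM over the 10 libraries after group and title code were removed, as a description with no test. For Dbp they were Natd1 (r = 0.989), Pik3ip1 (0.956), Lrp1b (0.950), Cdk5rap1 (0.950) and Hebp1 (0.942). For Arntl they were Vamp1 (r = 0.960), Fam53b (0.938), Hivep2 (0.936), Pparg (0.934) and Kcns1 (0.929). None of the 5 nearest to Dbp passed the group test, while Vamp1 (-0.43, edgeR adjusted p = 0.0228), Hivep2 (-0.48, 0.00197), Pparg (-0.79, 0.0207) and Kcns1 (-0.61, 0.019) fell with Arntl. After the 2 terms are removed, 7 degrees of freedom are left, and the genes share the same 10 libraries.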

How the data were processed

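The deposited values are raw counts of reads, as the authors left them, with a column for each library. The submitters' processing notes name FastQC, Subread, featureCounts, DESeq2 and edgeR and the builds mm10 and GRCm38. Their versions and settings, and whether strand was used, are not stated in these sources. Identifiers were matched to GENCODE M21 (14271 of 14276). Counts were tested with the edgeR 4.0.16 quasi-likelihood test (robust, TMM) in R 4.3.3, with title code and group as terms and Benjamini-Hochberg adjustment over all genes; adjusted p under 0.05 is a call. The default filter removed 0 genes. SE is the log2 difference over the square root of F. Replicates differed beyond sampling noise (chi-square per degree of freedom 7.2 to 96.9). Alternatives used DESeq2 1.42.0, limma 3.58.1 and other terms, scalings, filters and libraries. Values within a title code, within a group or for a genotype pair came from models of all 10 libraries. They share the spread of those libraries. Genes named were the 10, their 4 phase partners, other clock genes that passed, 5 nearest to Dbp and to Arntl, Brap, Fos and Fkbp5. The members and lists were chosen with earlier results of these data known. Levels in the text are CPM. Overlap of libraries, between groups or title codes, was read for listed genes alone, with no share over all genes.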

Additional observations from a re-analysis of the deposited data

Results flagged for a closer look

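Dbp in BrapcKO 21 stood at 46.84 CPM, far from the other 4 BrapcKO libraries at 16.9 to 24.9 CPM, with a gap of 0.731 of the range of the group. This is the only BrapcKO library with title code B2. It was the only such library among 20 sets of 5 tested, and chance gives about 1 in 20.

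The difference between BrapcKO and control itself differed between title codes at an unadjusted edgeR p under 0.05 for 3 of the 10 genes, against 7.49% of all genes, and no gene had an adjusted p under 0.05. The effect in B2 minus that in B1 was 0.82 on the log2 scale for Per2 (edgeR adjusted p = 0.653), -0.70 for Nr1d1 (0.657) and -1.15 for Dbp (0.639). Each rests on 1 BrapcKO library in B2.

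The flox/ko pair effect minus the flox/flox pair effect was 0.78 on the log2 scale for Per2 (edgeR adjusted p = 0.788), where 6.12% of all genes had an unadjusted p under 0.05.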

How the results depend on the processing

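No paired analysis was possible because the groups share no replicate numbers. BrapcKO 21, the only B2 knockout library, was assumed to vary like the others. The alternatives for correlations were chosen after seeing the data. Among values for single genes or relations, 714 kept direction and side of the threshold, 93 lost a call, 19 gained one and 40 changed sign. Causes of changes were not tested, except that fewer libraries enter some fits. Of the 10 clock genes, those called lower (3) numbered 1 with group alone, 1 with title code and Y-linked score, 0 with the score alone, 5 with DESeq2, 1 in B1, 0 in B2, 0 in the flox/flox pair, 1 in the flox/ko pair, and 0 to 4 with 1 library left out (0 without control 09). Other clock genes called lower (4) numbered 0, 2 and 0 with those 3 sets of terms, 2 with library totals, 0 in B1, 0 in B2, 0 and 2 in the genotype pairs, and 0 to 4 with 1 library left out (0 without BrapcKO 21). All genes called lower (706) numbered 356, 228 and 64 with those terms, 275 in B1, 123 in B2, 57 and 439 in the pairs, and 289 (without BrapcKO 21) to 880 with 1 library left out. All genes called higher (446) numbered 261, 92 and 30, 709 with DESeq2, 119 in B1, 107 in B2, 48 and 252 in the pairs, and 117 (without BrapcKO 21) to 617 with 1 library left out. Clock genes lower in B2 (2) numbered 0 in control and 1 in BrapcKO libraries alone and 0 to 2 with 1 left out; those higher (2) numbered 1, 1 and 1 to 2. Relations of Arntl (0) numbered 0 to 1 with 1 library left out, that of Per1 without BrapcKO 06 and that of Dbp, which clusters by title code, without control 08 or control 23. 

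Signs changed for BrapcKO minus control (log2) of Per2, at 0.12 with title code and Y-linked score, 0.009 with the score alone, 0.34 in B2 and 0.16 in the flox/ko pair; of Per3, at 0.043 and 0.26 with those scores; of Dbp, at 0.31 in B1; and of Tef, at -0.073 in the flox/flox pair. Clock stood at 0.10 with group alone, 0.13 with the score alone, 0.015 with library totals, 0.24 in B2 and 0.002 in the flox/flox pair. Nfil3 was 0.018 in B2. Cry1 was -0.031 with group alone, -0.063 in B1 and -0.10 in the flox/flox pair, where Brap was -0.042 and Fkbp5 -0.15, against 0.39 and 1.00 in the flox/ko pair, both called. For B2 minus B1, Per2 was -0.24 in control libraries, Tef 0.017 with the score added, and Bhlhe40 0.10 and Nfil3 0.24 in BrapcKO libraries. The r of Arntl with Per3 was -0.454 with title code means removed. With 1 library left out, the group difference ran from -0.48 to 0.079 for Per2, -0.32 to 0.31 for Dbp, -0.17 to 0.045 for Clock and -0.069 to 0.22 for Cry1. The title code difference ran from -0.23 to 0.33 for Per2, -0.087 to 0.005 for Tef, -0.15 to 0.11 for Bhlhe40 and -0.26 to 0.11 for Nfil3, and the r of Arntl with Per2 from -0.733 to 0.058.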

Other observations

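Nono, an X-linked gene for an RNA-binding partner of PER proteins, stood at 45.1 to 53.6 CPM in the 6 B1 libraries and at 96.8 to 106.8 CPM in the 4 B2 libraries, with no overlap (2.08 times as high in B2, log2 difference 1.06, edgeR adjusted p = 3.39e-07). The share of all genes without overlap between the title codes was not counted. The group difference of Nono was 0.09 (edgeR adjusted p = 0.568).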
